A study of Mus musculus with 10 samples.

Results

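The genes described here code for the main proteins of mouse milk and for a few proteins secreted with them: the caseins Csn1s1, Csn1s2a, Csn1s2b, Csn2 and Csn3, the whey proteins Wap and Lalba, the mucin Glycam1, and Btn1a1 of the milk fat globule. They were taken by gene name from 2 tables of normalized RNA sequencing values that together list 24616 genes. The macrophage table listed 8 of the 9 members and not Csn1s2b. The tumor table listed 7 of the 9 and neither Csn1s2a nor Glycam1.

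The libraries came from mammary tumors of B6:MMTV-PyMT mice, in which a viral oncogene is driven in the mammary epithelium. The mice labelled cKO carried Cxcr4 fl/fl with LysmCre, a Cre recombinase expressed in myeloid cells, and the control littermates carried Cxcr4 fl/fl with no Cre. Cxcr4 codes for the CXCL12 receptor. Thus every mouse had the oncogene and the floxed Cxcr4 alleles, and the tumors were harvested at an age of 15 weeks. Cells sorted on F4/80 and CD11b gave 3 cKO libraries (mice 725, 746 and 867) and 3 control libraries (mice 706, 720 and 775), and whole tumors gave 2 cKO libraries (725 and 746) and 2 control libraries (706 and 720). The labels do not state whether the mice were virgin or had borne litters.

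Caseins carry most of the protein of milk and hold calcium phosphate in micelles. Their genes are switched on in the luminal secretory cells of the mammary gland in pregnancy, when prolactin acts through its receptor and JAK2 to activate the transcription factor STAT5, together with glucocorticoids and factors such as ELF5. In mammary tumors their expression is used as a sign of how far tumor cells keep a secretory luminal character.

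In the GENCODE vM21 annotation of GRCm38, the 5 casein genes lie in 1 cluster on chromosome 5. Csn1s1, an alpha-S1 casein, spans chr5:87666208-87682578 on the plus strand. Csn2, the beta casein, spans chr5:87692624-87699630 on the minus strand, 10045 bases beyond it. Csn1s2a and Csn1s2b, both alpha-S2-like caseins, follow on the plus strand at chr5:87774567-87788797 and chr5:87808082-87824426. Csn3, the kappa casein that caps and stabilizes the micelle, lies another 101152 bases on at chr5:87925579-87932665 on the plus strand. The whole cluster covers 266458 bases. Wap spans chr11:6635482-6638637, Lalba chr15:98480400-98482721, Glycam1 chr15:103562759-103565081 and Btn1a1 chr13:23456992-23465901, each on the minus strand. By the deposited positions, which are not those of GRCm38, no span of a listed member overlapped that of another gene listed in the same table. None of the stretches of 75 bases compared, from 697 for Lalba to 7586 for Csn2, was shared with another member.

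RefSeq windows of the 250 bases before the start site (GRCm38.p6) were found for 6 of the 9 members: Csn1s1, Csn1s2a, Csn2, Wap, Lalba and Glycam1. The windows of Csn1s1 (chr5:87665958-87666207, plus strand) and Csn2 (chr5:87699426-87699675, minus strand) are printed because these neighboring caseins were the members with the lowest unadjusted p between genotype labels in tumors, that of Glycam1 (chr15:103565082-103565331, minus strand) because it is the third with the same motif, and that of Lalba (chr15:98482684-98482933, minus strand) as one without it. Capitals mark TTCNNNGAA, the palindromic STAT5 motif, which reads alike on both strands, and each window is written 5′ to 3′ on the strand of its gene. The start sites of Csn2 and Lalba differ between RefSeq and GENCODE, so these windows overlap the GENCODE spans given above.
Csn1s1: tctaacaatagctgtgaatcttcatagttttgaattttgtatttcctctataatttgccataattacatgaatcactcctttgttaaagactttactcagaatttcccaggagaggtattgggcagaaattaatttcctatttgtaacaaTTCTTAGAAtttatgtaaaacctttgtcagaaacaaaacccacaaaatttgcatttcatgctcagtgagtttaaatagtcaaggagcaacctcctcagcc
Csn2: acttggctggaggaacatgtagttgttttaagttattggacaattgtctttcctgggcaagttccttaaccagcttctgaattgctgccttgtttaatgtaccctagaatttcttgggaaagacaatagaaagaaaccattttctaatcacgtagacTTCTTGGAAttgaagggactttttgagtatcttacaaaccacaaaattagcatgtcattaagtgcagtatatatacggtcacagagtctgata
Glycam1: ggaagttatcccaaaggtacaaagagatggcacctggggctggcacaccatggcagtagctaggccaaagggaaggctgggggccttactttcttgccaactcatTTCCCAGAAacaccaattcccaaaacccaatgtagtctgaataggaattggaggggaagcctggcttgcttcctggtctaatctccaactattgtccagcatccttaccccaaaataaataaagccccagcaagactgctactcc
Lalba: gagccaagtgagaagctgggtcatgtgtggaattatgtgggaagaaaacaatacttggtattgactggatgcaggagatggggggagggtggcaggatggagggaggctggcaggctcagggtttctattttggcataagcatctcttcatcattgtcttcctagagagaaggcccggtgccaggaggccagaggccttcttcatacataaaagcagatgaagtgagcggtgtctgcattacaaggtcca

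The motif was at -100 to -92 from the start site in Csn1s1 (TTCTTAGAA), at -93 to -85 in Csn2 (TTCTTGGAA) and at -145 to -137 in Glycam1 (TTCCCAGAA). It was not in the windows of Csn1s2a, Wap and Lalba. Of 32841 RefSeq windows of the same length, 2306 (7.02%) held it. TATAAA, searched on both strands and unable to overlap it, was in 0 of the 6 members' windows and in 12.4% of all windows. These matches describe letters and not binding.

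Levels are given as CPM, the count of a gene scaled to a library total of 1e+06 over the listed genes. Where different genes are set beside each other, CPM was divided by the length of the main transcript in kilobases. Depth, read from the steps between low values, was 14.4 to 25.2 M reads in the sorted libraries and 34.2 to 53.4 M in tumors (M, 1e+06). A gene at 0 could therefore have been present at up to 0.119 to 0.208 CPM in the sorted libraries and 0.0562 to 0.0878 CPM in tumors (3 reads, counting error only). Cxcr4, the floxed gene, averaged 77.1 ± 76.8 CPM in the libraries labelled cKO and 68.0 ± 61.6 CPM in control libraries of sorted cells (SD, n = 3 each), and 52.7 ± 6.83 CPM in tumors labelled cKO and 31.6 ± 2.52 CPM in control tumors (n = 2 each), and hence was at no lower a mean with the cKO label in either table. These gene-level values do not show whether the floxed part was missing. Macrophage markers (10 genes, all listed) summed to 886 to 2238 CPM in the sorted libraries and 91.0 to 104.1 CPM in tumors. Luminal epithelial markers (10 genes, all listed, none at 0 in any library) summed to 3982 to 5626 CPM in the sorted libraries and 1121 to 1245 CPM in tumors, more than the macrophage markers in each sorted library.

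Among the members, 1 gene held nearly all the reads. Csn3 was at 3146, 3133 and 2481 CPM in the sorted libraries labelled cKO and at 1557, 4908 and 2503 CPM in the sorted control libraries. In tumors it was at 4675 and 6405 CPM in the libraries labelled cKO and at 4182 and 5783 CPM in control libraries. The genotype groups overlapped in both tables, and the lowest and the highest sorted libraries were both controls (706 and 720). Csn3 alone took 0.418% to 0.640% of all reads of a tumor library and 0.156% to 0.491% of those of a sorted library. It made up 97.6% to 98.97% of the members' summed CPM in tumors and 93.0% to 97.6% in sorted libraries, and at least 99.02% of the summed casein CPM in every library.

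**Figure D1:**
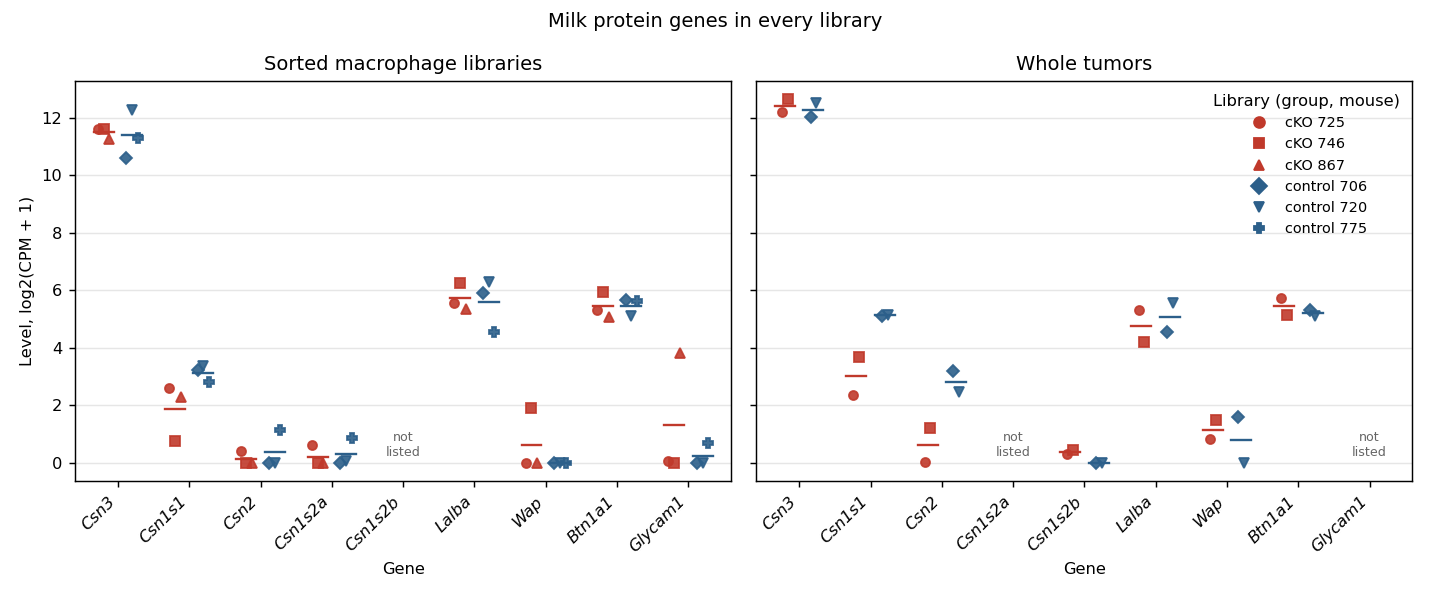
Level of each milk protein gene as log2(CPM + 1) (vertical axis) in every library of the sorted cells (left panel) and of the whole tumors (right panel); each marker is 1 mouse, red markers are libraries labelled cKO, blue markers are controls, and short lines are group means. Csn3 was at 1557 CPM or more in every library, while Csn2, Csn1s2a, Csn1s2b, Wap and Glycam1 were at or near 0 in several.

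Per kilobase, Csn3 was at 2620 to 4013 CPM per kb in tumors and ranked 2 to 4 among protein-coding genes there. In the sorted libraries it was at 975.5 to 3075 CPM per kb and ranked 10 to 20. In tumors the order per kilobase after Csn3 was Lalba (40.7 ± 17.8 CPM per kb), Csn1s1 (14.9 ± 10.9) and Btn1a1 (11.7 ± 2.60; SD, n = 4 libraries), followed by Csn2 with 0.0141 to 6.08 CPM per kb, Wap with 0 to 3.72 and Csn1s2b with 0 to 0.453. The ranges of Lalba and Csn1s1 overlapped, as did those of Csn1s1 and Btn1a1, of Csn2 and Wap, and of Wap and Csn1s2b, while Csn3 stood clear of Lalba and Btn1a1 clear of Csn2. In the sorted libraries the order was Csn3, Lalba (69.3 ± 28.0 CPM per kb), Btn1a1 (12.9 ± 3.23) and Csn1s1 (3.95 ± 2.22; SD, n = 6 libraries), and the range of each of the first 3 stood clear of the next. From Csn1s1 on, through Glycam1, Wap, Csn1s2a and Csn2, each range overlapped with the next, and each of the last 4 genes was at 0 in at least 3 libraries.

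Csn1s1 was the casein with the largest gap between genotype labels relative to its error. In tumors it was at 4.12 and 11.8 CPM in the libraries labelled cKO and at 33.3 and 34.6 CPM in control libraries. Every tumor labelled cKO lay below every control, and the controls were close to each other. Other measures of these libraries also split by label: snRNA took 15.6% and 18.0% of the reads in tumors labelled cKO and 20.4% and 24.0% in control tumors, and protein-coding genes took 53.0% and 56.6% in tumors labelled cKO and 51.2% and 49.7% in control tumors. Scaled to protein-coding reads alone, Csn1s1 was at 7.77 and 20.9 CPM in tumors labelled cKO and at 65.1 and 69.7 CPM in control tumors, still without overlap. The means were 7.96 ± 5.44 CPM in the libraries labelled cKO and 34.0 ± 0.925 CPM in controls (SD, n = 2 each), a log2 difference of -2.11 (standard error 0.48, 95% interval -3.13 to -1.09) on log2(CPM + 1). The unadjusted limma p was 0.000442, the 9th lowest of 14630 genes, and the Benjamini-Hochberg adjusted p was 0.602, so the difference did not pass the threshold of 0.05.

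In sorted cells Csn1s1 was at 5.11, 0.700 and 3.86 CPM in the libraries labelled cKO and at 8.41, 9.30 and 6.04 CPM in control libraries. Here too every library labelled cKO lay below every control, with mouse 746 lowest. The means were 3.22 ± 2.27 CPM in the libraries labelled cKO and 7.92 ± 1.68 CPM in controls (SD, n = 3 each), with a log2 difference of -1.25 (standard error 0.70, 95% interval -2.70 to 0.19, limma adjusted p = 0.9998). Without mouse 746 the difference was -0.69 (standard error 0.68). Because 4 of the 6 mice gave a library to both tables, the sorted cells are not an independent set of animals. The groups stood apart relative to Csn3, another gene of the cluster. In tumors this mostly restates the Csn1s1 values, since Csn3 varied only 1.53 times between libraries and Csn1s1 8.41 times. Csn3 CPM divided by Csn1s1 CPM was 1130 and 542 in tumors labelled cKO and 125 and 167 in control tumors. The same ratio in sorted cells was 615, 4470 and 643 in the libraries labelled cKO and 185, 528 and 414 in controls, again without overlap.

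Csn2, the beta casein, is among the most abundant milk proteins and was weak here. In tumors it was at 0.0187 CPM (1 read) and 1.33 CPM in the libraries labelled cKO and at 8.08 and 4.56 CPM in control libraries. Every tumor labelled cKO lay below every control. The means were 0.673 ± 0.926 CPM in the libraries labelled cKO and 6.32 ± 2.49 CPM in controls (SD, n = 2 each), a log2 difference of -2.21 (standard error 0.88, 95% interval -4.07 to -0.34, limma adjusted p = 0.819). Csn2 passed the filter of a mean of 1 CPM only through its control tumors, so a difference was built into its being tested, and with pseudocounts of 0.1 and 5 in place of 1 the value was -3.91 and -0.99. In sorted cells Csn2 was at 0.344, 0 and 0 CPM in the libraries labelled cKO and at 0, 0 and 1.22 CPM in control libraries, under the same filter, and was not tested.

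**Figure D2:**
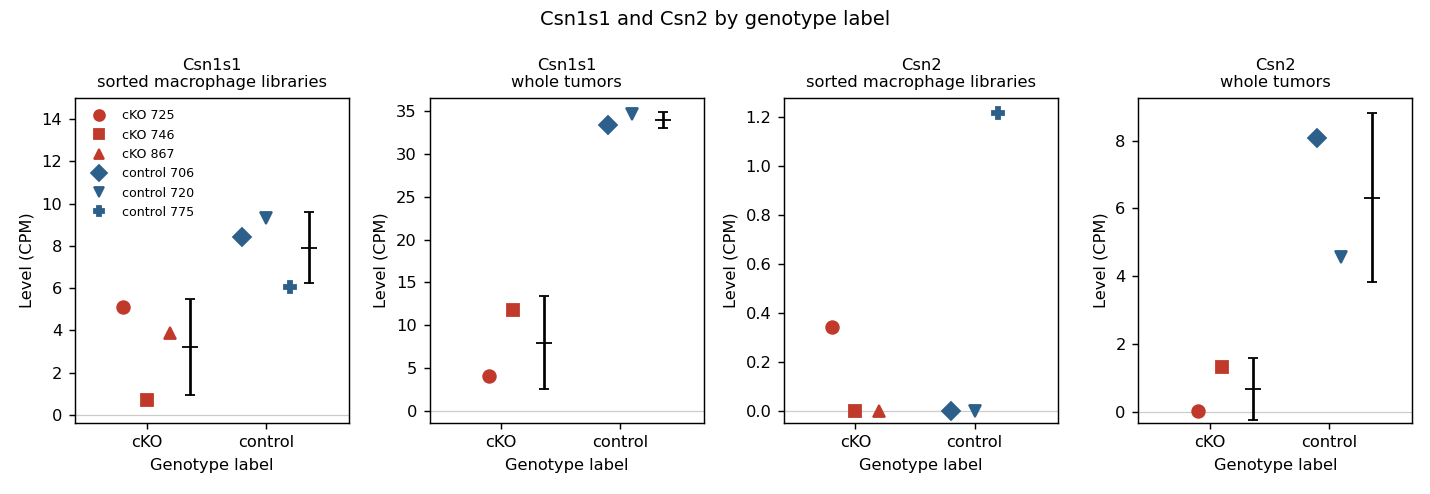
Csn1s1 and Csn2 in CPM (vertical axes, each with its own scale) by genotype label in sorted cells and in whole tumors; each marker is 1 mouse, and bars are the mean ± SD, left out for Csn2 in sorted cells, where 4 of 6 libraries are at 0. In tumors both genes are lower in each library labelled cKO (Csn1s1 at 4.12 and 11.8 CPM, Csn2 at 0.0187 and 1.33 CPM) than in each control, and for Csn2 in sorted cells the groups overlap.

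Between the other caseins the labels gave no such split or too few reads. Csn1s2a in sorted cells was at 0.541, 0 and 0 CPM in the libraries labelled cKO and at 0, 0.0445 (1 read) and 0.826 CPM in controls. Csn1s2b in tumors was at 0.243 and 0.367 CPM (13 reads each) in the libraries labelled cKO and at 0 CPM in both controls, the opposite order to that of Csn1s1 and Csn2 nearby. Both stayed under the filter and were not tested. For Csn3 the log2 difference was 0.15 in tumors (standard error 0.21, 95% interval -0.28 to 0.59, limma adjusted p = 0.930) and 0.12 in sorted cells (standard error 0.38, 95% interval -0.67 to 0.91, limma adjusted p = 0.9998). The means of Csn3 were 5540 ± 1223 CPM in tumors labelled cKO and 4982 ± 1132 CPM in control tumors (SD, n = 2 each), and 2920 ± 381 CPM in sorted libraries labelled cKO and 2990 ± 1728 CPM in sorted controls (n = 3 each).

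Among the whey proteins, Lalba codes for alpha-lactalbumin, which turns galactosyltransferase into lactose synthase. It was at 39.1 and 17.3 CPM in tumors labelled cKO and at 22.5 and 46.5 CPM in control tumors. In sorted cells it was at 45.8, 75.7 and 39.9 CPM in the libraries labelled cKO and at 59.1, 77.8 and 22.3 CPM in controls. The groups overlapped in both tables. The log2 difference was -0.31 in tumors (95% interval -1.19 to 0.58) and 0.14 in sorted cells (95% interval -0.66 to 0.94).

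Wap, the whey acidic protein, was at 0.768 and 1.78 CPM in tumors labelled cKO and at 2.05 and 0 CPM in control tumors. In sorted cells a single library, that of cKO mouse 746, held it at 2.75 CPM (55 reads), and the other 5 were at 0. The tumor of the same mouse held 1.78 CPM. The log2 difference in tumors was 0.34 (standard error 1.01, 95% interval -1.79 to 2.48), an interval too wide to place it on either side.

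Btn1a1, a butyrophilin of the membrane that wraps milk fat globules, varied less among libraries than Csn1s1. It was at 52.8 and 34.2 CPM in tumors labelled cKO and at 39.1 and 33.8 CPM in control tumors. In sorted cells it was at 38.5, 60.8 and 32.7 CPM in the libraries labelled cKO and at 49.7, 33.3 and 49.0 CPM in controls. Its highest library was 1.86 times its lowest in sorted cells and 1.57 times in tumors, against 13.3 and 8.41 times for Csn1s1, and 3.15 and 1.53 times for Csn3. The log2 difference was 0.22 in tumors (95% interval -0.43 to 0.88) and -0.03 in sorted cells (95% interval -0.70 to 0.65), with overlapping groups.

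Glycam1, a mucin that is secreted into milk and is also made by the high endothelial venules of lymph nodes as a ligand of L-selectin, was found in sorted cells mainly in 1 library. It was at 0.0492 (1 read), 0 and 13.2 CPM (333 reads) in the libraries labelled cKO and at 0, 0 and 0.609 CPM (14 reads) in controls. The high value was that of cKO mouse 867, and the groups overlapped. The log2 difference was 1.07 (standard error 0.99, 95% interval -0.97 to 3.12), and without mouse 867 the gene was under the filter. The library of mouse 867 also had the highest sum of 5 endothelial markers, 273.5 CPM, against 16.95 to 100.1 CPM in the other 5 sorted libraries. Of 8 venule markers 6 were listed. Their sum was 95.1 CPM for mouse 867 and 50.4 and 62.7 CPM in the other libraries labelled cKO, against 50.7 to 83.6 CPM in controls. Selp was at 33.6 CPM, Sele at 5.21 CPM and Ackr1 at 8.03 CPM in the library of mouse 867, and each was lower in every other sorted library. Fut7 was at 0 in all sorted libraries except that of control mouse 706, and the defining Chst4 and Madcam1 were not listed. Chst2 and Gcnt1 were not raised in the library of mouse 867, at 10.4 and 37.8 CPM. In the other sorted libraries Chst2 was at 6.88 to 29.9 CPM and Gcnt1 at 33.2 to 65.5 CPM. This library also had the highest sum of 5 fibroblast markers, 513 CPM, and its other milk genes Csn3, Lalba and Btn1a1 (2481, 39.9 and 32.7 CPM) lay within or, for Btn1a1, just under the range of the other sorted libraries. Sums of the listed lymphocyte and adipocyte markers were also highest in the library of mouse 867, at 17.5 and 44.2 CPM. The other sorted libraries held 1.32 to 6.855 CPM and 0.295 to 18.0 CPM. The part of endothelial, fibroblast, lymphocyte or adipocyte content in the Glycam1 value was not tested.

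Of the 6 members tested in tumors, 0 passed an adjusted p of 0.05, where 0% of 14630 genes did, and 2 had an unadjusted p under 0.05 (Csn1s1 and Csn2), where 5.85% of genes did. For 2 of the 6 every library labelled cKO lay below every control, against 14.3% of all genes, and for 0 of 6 every one lay above, against 21.2%. Of the 5 members tested in sorted cells, 0 passed the adjusted threshold, where 0% of 16304 genes did, and 0 had an unadjusted p under 0.05, where 2.63% did. Csn1s1 was the 1 of 5 below all controls, against 3.45% of genes, and 0 of 5 lay above them all, against 3.78%. The lowest adjusted p of any gene was 0.492 in tumors and 0.9998 in sorted cells. The members' median log2 difference was -0.08 in tumors (3 positive and 3 negative) and 0.12 in sorted cells (3 positive and 2 negative), against 0.09 and 0.05 over all genes tested. Members count as tested only above a mean of 1 CPM, which Csn2 in tumors passed only through its controls and Glycam1 in sorted cells only through the library of mouse 867, so neither can support these counts. Without Csn2, Csn1s1 is the 1 member in tumors behind both counts of 2. Each library is 1 mouse, and with 2 tumors in each group the spread is poorly known.

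**Figure D3:**
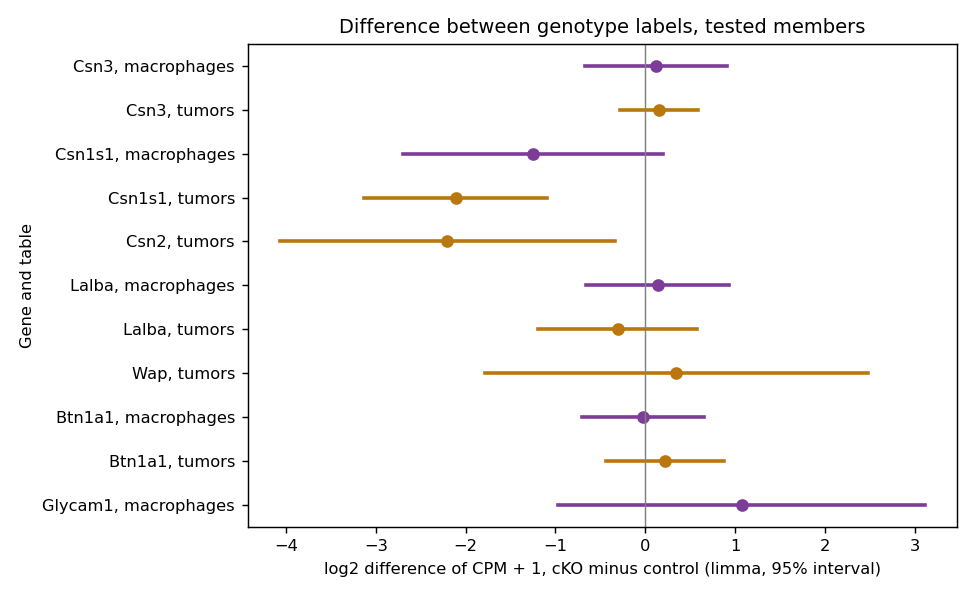
Log2 difference of CPM + 1 between the libraries labelled cKO and the controls (horizontal axis, cKO minus control; points) with its 95% interval (lines) from limma for each tested member, in purple for sorted cells and in orange for tumors. The intervals of Csn1s1 and Csn2 in tumors (-3.13 to -1.09 and -4.07 to -0.34) lie below 0, before adjustment over all genes, and all others span 0. Csn2 was tested in tumors only because its controls lifted it over the filter, so its interval cannot support a difference.

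The contrast between Csn1s1 and the luminal markers was set beside the cell makeup of the tumors. The summed luminal markers were 1194 and 1123 CPM in tumors labelled cKO and 1245 and 1121 CPM in control tumors, which overlap. Scaled to this sum, the log2 difference of Csn1s1 was -2.08 in tumors and -1.32 in sorted cells. The summed fibroblast markers (5 of 5 listed, none at 0) were 178.6 and 262.6 CPM in tumors labelled cKO and 279.3 and 360.6 CPM in control tumors, without overlap. The part of stromal content in the casein values was not tested. In whole tumors fewer cells of a type and less RNA per cell cannot be told apart.

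The sorted cells held milk RNA in amounts that differed by gene from those of the tumor of the same mouse. In the 4 mice with both libraries, the sorted library held 0.673 and 0.489 times the tumor's Csn3 CPM in cKO mice 725 and 746 and 0.372 and 0.849 times in control mice 706 and 720. For Lalba these ratios were 1.17 and 4.39 in the cKO mice and 2.62 and 1.67 in the controls, so all 4 sorted libraries had a higher Lalba CPM than the tumor. Scaled to protein-coding reads alone, this did not hold in every mouse. Lalba was then at 62.0 CPM sorted and 73.6 CPM in the tumor for cKO mouse 725, and at 96.1 and 30.5 CPM for cKO mouse 746. For control mice it was at 80.5 and 44.0 CPM (706) and at 97.1 and 93.6 CPM (720). For Btn1a1 they were 0.729 and 1.78 in the cKO mice and 1.27 and 0.988 in the controls, on both sides of 1. For Csn1s1 they were 1.24 and 0.0593 in the cKO mice and 0.252 and 0.268 in the controls. The CPM totals of each table run over its own listed genes, and protein-coding genes made up 67.7% to 80.1% of the sorted libraries and 49.7% to 56.6% of the tumors, so no test was made between them.

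Ratios to Epcam, an epithelial adhesion gene, do not depend on the library total. Csn3 per Epcam was 6.96, 5.08 and 5.51 in the sorted libraries labelled cKO and 4.13, 9.17 and 7.38 in sorted controls. In tumors it was 12.9 and 19.4 in the libraries labelled cKO and 9.05 and 17.0 in controls. In each of the 4 mice the tumor had more Csn3 per Epcam than the sorted cells. Lalba per Epcam was 0.0656 to 0.157 in sorted cells and 0.0488 to 0.137 in tumors, and Btn1a1 per Epcam was 0.0623 to 0.144 in sorted cells and 0.0847 to 0.145 in tumors, both with overlapping ranges. These ranges depended on the marker chosen. Per summed CPM of the 10 luminal markers, Btn1a1 was 0.00657 to 0.0125 in sorted cells and 0.0301 to 0.0442 in tumors, without overlap, Lalba was 0.00449 to 0.0174 in sorted cells and 0.0154 to 0.0415 in tumors, with little overlap, and Csn3 was 0.391 to 1.10 in sorted cells and 3.36 to 5.70 in tumors. The claudin Cldn4 alone was at 1646 to 2429 CPM in sorted cells and 72.8 to 89.9 CPM in tumors, and so weighs on this sum in sorted cells. Csn1s1 per Epcam in tumors was 0.0113 and 0.0357 in the libraries labelled cKO and 0.0721 and 0.102 in controls. Thus Csn3, Lalba and Csn1s1 did not stand in 1 fixed ratio to each other in the sorted and the whole-tumor libraries. Csn3 per Lalba was 26.3 to 112.0 in sorted cells and 120.0 to 371.0 in tumors, which did not overlap. The source of the milk RNA in the sorted libraries was not tested.

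**Figure D4:**
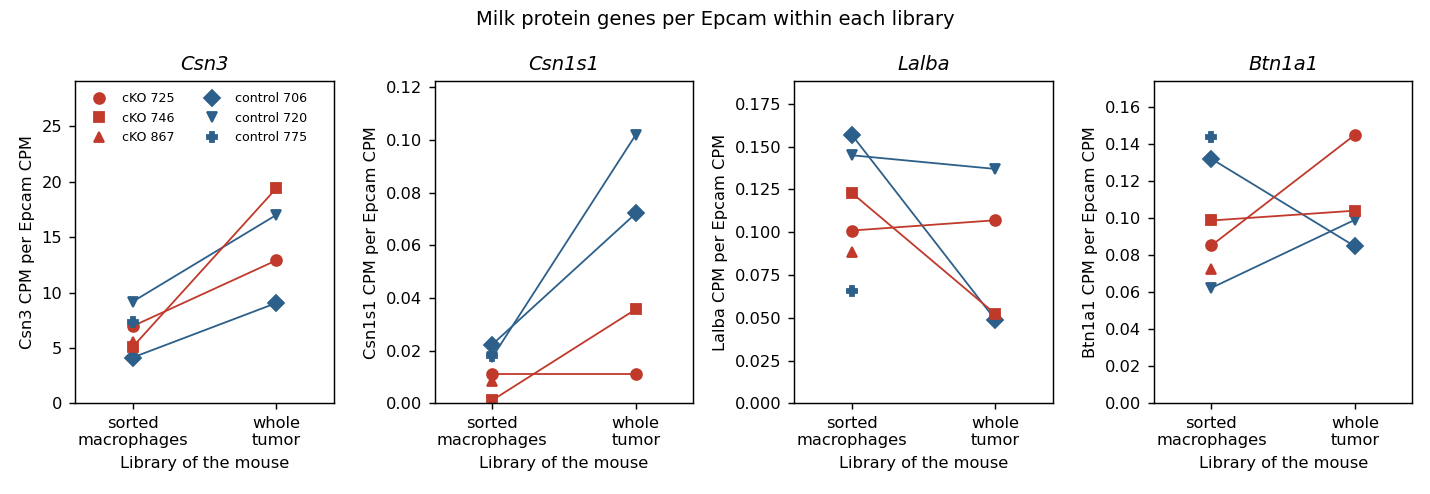
CPM of Csn3, Csn1s1, Lalba and Btn1a1 divided by the CPM of Epcam in the same library (vertical axes, from 0), for sorted cells and the whole tumor; each marker is 1 mouse, lines join the 2 libraries of a mouse, red marks cKO and blue marks control. Csn3 per Epcam is higher in the tumor for all 4 joined mice, at 9.05 to 19.4, while the Lalba and Btn1a1 ratios overlap in range between sorted cells and tumors. For Btn1a1 this holds for Epcam only, since per summed luminal markers its tumor values, at 0.0301 or more, all lie above its sorted values, at 0.0125 or less.

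The 4 members above a mean of 1 CPM in both tables did not move as a block from mouse to mouse. After centering within each table, Pearson's r over the 10 libraries, 8 of them from 4 mice, was between -0.603 (Csn1s1 and Btn1a1) and 0.227 (Csn3 and Lalba) for the 6 pairs. The values share library totals and are given as a description. Against the mean profile of the 4, which each helps to make, r was 0.687 for Csn1s1, 0.574 for Lalba, 0.353 for Csn3 and -0.385 for Btn1a1. The genes closest to that mean among 9207 with at least 5 CPM in both tables were Cip2a (r = 0.935), Tafazzin (0.924), Brix1 (0.907), Hibadh (0.902) and Lcor (0.869). None of these 5 is in the lists of lactation genes used here.

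Of 17 genes of the hormone pathway that drives milk genes, all were listed in sorted cells and 15 in tumors. Prlr, the prolactin receptor, was at 532.8 and 422.1 CPM in tumors labelled cKO and at 533.9 and 376.6 CPM in control tumors. Stat5a, the transcription factor activated downstream of it, was at 37.6 and 40.1 CPM in tumors labelled cKO and at 21.2 and 21.1 CPM in control tumors, a log2 difference of 0.85 (limma adjusted p = 0.819). Every tumor labelled cKO thus lay above every control in Stat5a, as in 21.2% of all genes tested, while Csn1s1 and Csn2 lay below. Sorted cells did not repeat this split for Stat5a. It was at 30.4, 31.0 and 37.7 CPM in the sorted libraries labelled cKO and at 48.45, 31.9 and 31.8 CPM in sorted controls. Cish, a STAT5 target that feeds back on the pathway, averaged 7.10 ± 0.849 CPM in tumors labelled cKO and 11.9 ± 2.74 CPM in control tumors, and the transcription factor Cebpb averaged 33.8 ± 3.04 CPM in tumors labelled cKO and 52.9 ± 10.8 CPM in control tumors (SD, n = 2 each). Of the 17 genes, 15 were tested in tumors, with 8 positive and 7 negative differences and a median of 0.05. Cish and Cebpb had the 2 lowest of these differences and Stat5a the highest. Of the 15 genes, 2 lay above and 3 below every control tumor, against 21.2% and 14.3% of all genes. In sorted cells 16 were tested, with 7 positive and 9 negative differences and a median of -0.04. In sorted cells Elf5, which drives secretory luminal fate, averaged 101.2 ± 13.5 CPM in the libraries labelled cKO and 77.2 ± 7.75 CPM in controls (SD, n = 3 each, limma adjusted p = 0.9998). Every sorted library labelled cKO lay above every control in Elf5, as in 3.78% of all genes tested. Elf5 was the 1 gene of the 16 tested to do so and had the highest difference of the list. The Elf5 values of tumors overlapped, at 156.5 and 181.8 CPM with the cKO label and 159.8 and 165.2 CPM in controls. No gene of this or any list below passed the adjusted threshold in either table.

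Of the milk fat genes, 13 of 20 tested had a positive and 7 a negative difference in tumors (median 0.20), and 9 and 11 of 20 in sorted cells (median -0.03). Vldlr, which takes up lipoproteins, was at 97.95 and 108.6 CPM in tumors labelled cKO and at 57.2 and 55.4 CPM in control tumors (log2 difference 0.86, limma adjusted p = 0.717). Thrsp, which promotes fatty acid synthesis in the lactating gland, was at 12.6 and 16.0 CPM in tumors labelled cKO and at 36.1 and 28.1 CPM in control tumors (log2 difference -1.11, limma adjusted p = 0.819). Acly, which makes the acetyl-CoA for fatty acids, averaged 107.1 ± 15.9 CPM in tumors labelled cKO and 154.2 ± 5.21 CPM in control tumors (SD, n = 2 each). Thus Thrsp and Acly lay on the side of Csn1s1 and Csn2, and Vldlr on the other, as did Xdh (62.0 ± 0.0451 against 44.9 ± 20.1 CPM). These 4 are the extremes of the list. Of the 20 genes tested in tumors, 5 lay above and 3 below every control, against 21.2% and 14.3% of all genes. In sorted cells the Thrsp difference was positive, at 0.65 (standard error 0.71).

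Lactose synthesis genes had 2 positive and 7 negative of 9 in tumors (median -0.09) and 6 and 3 of 9 in sorted cells (median 0.03). B4galt1, the galactosyltransferase that works with alpha-lactalbumin, averaged 263.1 ± 25.9 CPM in tumors labelled cKO and 252.5 ± 2.47 CPM in control tumors (SD, n = 2 each). Other secreted whey and secretory cell genes had 6 positive and 6 negative of 12 in tumors (median -0.01) and 9 and 2 of 11 in sorted cells (median 0.21). Ltf, the iron-binding lactoferrin, averaged 53.5 ± 0.849 CPM in tumors labelled cKO and 74.0 ± 16.7 CPM in control tumors, and transferrin, Trf, averaged 1774 ± 524 CPM in tumors labelled cKO and 1333 ± 299 CPM in control tumors. Between Csn1s1 and Csn3 no annotated gene other than the caseins was listed in either table. Of 14 genes around the cluster, 4 were listed and 3 tested in tumors (1 positive and 2 negative, median -0.01), and 5 were listed and 2 tested in sorted cells (both positive, median 0.61). Utp3, a ribosome assembly gene beyond Csn3, averaged 33.7 ± 3.22 CPM in tumors labelled cKO and 31.5 ± 2.25 CPM in control tumors.

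Among markers of cell types, in tumors, positive and negative differences numbered 6 and 4 for luminal, 2 and 4 for basal, 4 and 4 for macrophage, 4 and 1 for endothelial and 1 and 4 for fibroblast markers, with medians of 0.02, -0.19, 0.06, 0.24 and -0.44. Of the 5 fibroblast markers, 2 had an unadjusted limma p under 0.05 in tumors, against 5.85% of all genes. For 3 each tumor labelled cKO lay below every control, against 14.3% of all genes. The markers did not move alike. In tumors labelled cKO and in control tumors Col1a2 averaged 84.0 and 142.5 CPM and Lum 9.34 and 22.4 CPM (n = 2 each). Dcn averaged 30.7 and 33.7 CPM, and Pdgfra went the other way, at 14.1 and 12.3 CPM. In sorted cells the positive and negative differences of the same lists, in the same order, were 6 and 4, 4 and 2, 9 and 1, 5 and 0, and 3 and 2, with medians of 0.09, 0.38, 0.29, 0.44 and 0.05. Of all genes tested, 45.3% were negative in sorted cells and 43.4% in tumors. Single libraries weigh on these counts. The macrophage sum was 886 CPM in control mouse 775 and 1792 to 2238 CPM in the other sorted libraries. The endothelial sum was 273.5 CPM in cKO mouse 867 and 16.95 to 100.1 CPM in the others. The tested venule markers were 0 positive and 2 negative in tumors and 4 and 1 in sorted cells (medians -0.06 and 0.30), lymphocyte markers 0 and 1 in tumors and 2 and 0 in sorted cells, and adipocyte markers 2 and 2 in tumors and 0 and 1 in sorted cells. Adipocyte markers (6 listed in tumors) summed to 31.0 and 1.67 CPM in tumors labelled cKO, the tumor with 1.67 CPM having Adipoq, Plin1, Cidec and Lep at 0, and to 9.89 and 10.3 CPM in control tumors. Lymphocyte markers (4 listed) summed to 1.80 and 3.14 CPM in tumors labelled cKO and to 6.91 and 2.32 CPM in control tumors.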

How the data were processed

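The deposited tables, one for sorted cells and one for whole tumors, hold log2 values: per the submitters' processing notes the reads were handled with STAR 2.7.8a and Partek on GRCm38, and 2 to the power of each deposited value, minus 1, sums to 1e+06 in every library, so each is log2(CPM + 1). Planned for linear values, the tests used the deposited log2 values unchanged. Low values came out as whole reads for 86.5% to 89.0% (tolerance 0.1 read), too few for a count test. In each table by itself, genes averaging 1 CPM or more were tested with limma 3.58.1 under R 4.3.3 (lmFit, eBayes with a trend), cKO minus control, with two-sided p-values adjusted by Benjamini-Hochberg over all genes tested (threshold 0.05). The test was also tried on values simulated from the means and spread of these genes. Differences on this scale understate changes of weak genes. Positions and transcript lengths come from GENCODE vM21 by gene ID, since the positions in the tables are not those of GRCm38, and promoter windows from RefSeq. Only the check for overlapping spans used the deposited positions. Named were all 9 members, Cxcr4, Epcam, 5 genes of like profile, and up to 4 genes per list, those with the 2 highest and 2 lowest differences. Prlr, Fut7, Ackr1, Cldn4, Cidec and Lep, and the values of Stat5a in sorted cells and Elf5 in tumors, were added after they were seen. Members and lists were chosen with earlier results of these data known. Alternatives were other pseudocounts (0.1 and 5), filters (none and 5 CPM), scalings (trimmed mean, median ratio, luminal markers), no trend, and each library left out.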

Additional observations from a re-analysis of the deposited data

How the results depend on the processing

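Of 136 member differences under alternatives, 122 kept their sign and 14 reversed. The filters and the fit without a trend cannot change a difference, so the count that kept its sign includes settings with no effect. Of the 125 with a test, 0 crossed the threshold (limma adjusted p 0.27 to 1.0), and the 11 scaled to luminal markers had none. Csn1s1 stayed negative in 12 of 12 alternatives in tumors (-2.77 to -1.45) and 14 of 14 in sorted cells (-1.63 to -0.68, and -0.69 without cKO mouse 746), and Csn2 in the 11 that gave a value in tumors (-3.91 to -0.99). In these cases the groups do not overlap, so a library left out or another pseudocount could not reverse the sign. Only the scalings could have done so. Csn2 also passed the filter only through its control tumors. Scaled to luminal markers, the Csn3 difference in sorted cells was -0.0079. With 1 library left out, differences in sorted cells ranged from -0.28 to 0.16 for Btn1a1, -0.27 to 0.56 for Csn3 and -0.38 to 0.50 for Lalba, and in tumors from -0.0853 to 0.53 for Btn1a1, -0.0796 to 0.39 for Csn3, -0.87 to 0.26 for Lalba and -0.46 to 0.67 for Wap; these signs rest on single libraries. In tumors this leaves 1 library in a group, assumed to vary like the other group. The count of genes past the threshold was 0 to 3 in sorted cells when 1 library was left out and 0 in tumors. Wap, Csn2 and Glycam1 fell under the filter in some alternatives and gave no value. No paired analysis was possible because cKO and control libraries share no mouse, the partners of the size-matched pairs are not named, and the tables holding the same mice were normalized separately. Depth limits Csn2, Csn1s2a, Csn1s2b, Wap and Glycam1, which had few reads in several libraries.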
